A study of Rattus norvegicus with 10 samples.

Results

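The mRNAs of Mlf1, Smpx, Itgb1bp2 and Ppp1r27, which are enriched in striated muscle, were followed in rat skeletal muscle at 0 h and 48 h of PMI, the postmortem interval. The mean of each at 48 h lay more than 3.5 log2 units below its mean at 0 h. This held for 29 of the 15037 genes with a symbol on the array, so the threshold alone does not single out these 4. The 4 were picked on this fall, so their loss between the groups is a description and was not tested. Each gene was read by 1 probe set, that is, several short probes along the mRNA summarised as 1 level. The samples were femoral skeletal muscle of 10 wild-type male Wistar rats weighing under 200 g, all killed by cervical dislocation. In 5 rats the muscle was taken at once (0 h), and in 5 other rats after 48 h at 25 °C. RNA was amplified with the 3' IVT Pico kit and measured on Clariom S Rat arrays, 1 per animal, and the deposited values are on a log2 scale after RMA.

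The proteins of these mRNAs sit at different places of the muscle fibre. MLF1 (myeloid leukemia factor 1) is abundant in muscle and is best known from human leukemia, in which its gene is fused to that of nucleophosmin. SMPX (small muscular protein, also called Chisel) is a small protein of the costamere, the structure that ties the sarcomere to the membrane, and in humans its X-linked gene is mutated in a form of hearing loss and in a distal myopathy. ITGB1BP2 (melusin) is a chaperone-type protein that binds the cytoplasmic tail of the beta1 integrin and works with HSP90, and mice without it tolerate pressure load of the heart poorly. PPP1R27 binds protein phosphatase 1 (PP1) and was also described as a dysferlin-interacting protein.

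The promoter sequences are shown because muscle genes share a small set of promoter motifs, and the 4 genes were grouped by their loss and not by sequence. Each sequence runs from 250 bases before to 50 bases after the RefSeq start of the gene on GRCr8. The windows are chr2:153958341-153958640 (plus strand) for Mlf1, chrX:41107088-41107387 (minus strand) for Smpx, chrX:70612271-70612570 (plus strand) for Itgb1bp2 and chr10:106327811-106328110 (minus strand) for Ppp1r27. Capitals mark every match, on either strand, to the E-box CANNTG bound by myogenic bHLH factors, the MCAT element CATTCC bound by TEAD factors, the TATA box TATAAA, the MEF2 site and the CArG box bound by SRF.
Mlf1: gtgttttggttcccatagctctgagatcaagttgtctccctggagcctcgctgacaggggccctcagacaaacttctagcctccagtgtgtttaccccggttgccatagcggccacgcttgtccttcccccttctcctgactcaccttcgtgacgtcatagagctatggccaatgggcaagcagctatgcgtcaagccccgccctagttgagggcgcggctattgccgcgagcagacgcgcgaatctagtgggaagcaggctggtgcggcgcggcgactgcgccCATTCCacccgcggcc
Smpx: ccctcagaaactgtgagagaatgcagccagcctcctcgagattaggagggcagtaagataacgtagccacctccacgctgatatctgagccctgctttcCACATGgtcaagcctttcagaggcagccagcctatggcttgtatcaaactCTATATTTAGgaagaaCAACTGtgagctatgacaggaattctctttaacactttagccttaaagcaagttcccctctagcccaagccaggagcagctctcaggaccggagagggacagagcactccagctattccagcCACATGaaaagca
Itgb1bp2: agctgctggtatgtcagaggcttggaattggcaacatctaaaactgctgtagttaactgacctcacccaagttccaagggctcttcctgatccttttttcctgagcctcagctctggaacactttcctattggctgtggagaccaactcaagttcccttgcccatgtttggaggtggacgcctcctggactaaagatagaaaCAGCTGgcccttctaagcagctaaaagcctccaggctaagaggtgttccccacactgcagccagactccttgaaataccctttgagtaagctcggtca
Ppp1r27: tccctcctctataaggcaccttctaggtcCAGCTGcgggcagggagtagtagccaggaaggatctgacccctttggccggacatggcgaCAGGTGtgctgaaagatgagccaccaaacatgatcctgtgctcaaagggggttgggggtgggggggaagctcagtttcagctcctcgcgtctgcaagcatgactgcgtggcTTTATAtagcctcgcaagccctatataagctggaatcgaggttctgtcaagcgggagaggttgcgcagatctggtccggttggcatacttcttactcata
The 4 windows did not share a motif. Smpx held 3 E-boxes (CACATG at positions -151 and 38 and CAACTG at -85 from the start) and was the sole window with a MEF2 site (CTATATTTAG, position -101). Itgb1bp2 held 1 E-box (CAGCTG, position -48), and Ppp1r27 held 2 (CAGCTG at -221 and CAGGTG at -161) with 1 TATA match on the reverse strand (TTTATA, position -50). The search took TATAAA exactly, so the near match TATATAAG, closer to the start in the same Ppp1r27 window, is left in lower case. Mlf1 held no E-box and 1 MCAT match (CATTCC, position 35, after the start). Over the 33469 rat promoters of the same length, 72.1% held an E-box, 14.2% an MCAT element, 14.2% a TATA match, 0.565% a MEF2 site and 1.64% a CArG box, so an E-box in 3 of the 4 is near the general share. The GC content was 61.3% in Mlf1, 55.3% in Ppp1r27 and 50.0% in both Smpx and Itgb1bp2, against a median of 51.7% over all promoters. A match describes the letters in the window and is not evidence that a factor is bound there.

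Across the arrays, the median value was 5.17 to 5.21 in both groups, while the 99th percentile was 10.64 to 10.72 at 0 h and 9.82 to 10.02 at 48 h, so the bright end of the scale was lower at 48 h. Over all probe sets the median SD over the 5 rats of a group was 0.19 in the 0 h group and 0.37 in the 48 h group (log2). Of the 23188 probe sets tested with limma, 12.1% fell and 4.35% rose (fold of at least 2, adjusted p under 0.05), and the median change was 0.10. Skeletal muscle markers were abundant at 0 h, and of 8 measured 6 fell, while 5 of 6 fibroblast markers fell and 6 of 9 endothelial markers rose. In bulk tissue, fewer cells of a type and less RNA per cell cannot be told apart. The study's methods describe a gel check of RNA integrity at 0 h that was not made at 48 h, so RNA integrity and PMI cannot be told apart in these arrays, and the number of arrays limits the precision.

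Mlf1 mRNA had the largest fall of the 4 in the values as deposited, an order that did not hold after cyclic loess scaling (Itgb1bp2 -3.65, Smpx -3.54, Mlf1 -3.54, Ppp1r27 -3.20). In rats 1 to 5 of the 0 h group its value was 10.43, 10.39, 10.32, 10.43 and 10.10 (log2). In rats 1 to 5 of the 48 h group, which are different animals, it was 7.37, 5.34, 6.37, 6.06 and 5.91. The 0 h rats were tightly grouped and the 48 h rats were widely spread, with rat 1 highest and rat 2 lowest, and no value of one group reached the other. The mean went from 10.33 ± 0.14 to 6.21 ± 0.75 (SD, n = 5 per group), a fall by 4.12 log2 units or 17.4-fold. Even between the closest rats of the 2 groups the difference was 2.73 log2 units (6.63-fold). The study also measured Mlf1 by quantitative PCR in the same rats, relative to Gapdh. It reported a decrease at 48 h there too, but a much smaller one than on its arrays. The fold given here is thus that of the array values only.

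Smpx mRNA had the smallest SD of the 4 at 48 h. Its values at 0 h were 9.10, 8.54, 8.91, 8.83 and 9.02 in rats 1 to 5. At 48 h they were 5.12, 4.68, 4.48, 5.27 and 5.06. Rat 2 was lowest at 0 h and rat 3 at 48 h, and the 2 groups lay far apart with no overlap. The mean went from 8.88 ± 0.22 to 4.92 ± 0.33 (SD, n = 5 each), a fall by 3.96 log2 units or 15.5-fold, and the closest rats differed by 3.26 log2 units (9.61-fold). At 48 h the signal was above 58.7% to 74.7% of the negative controls of the same arrays. How far this low level sets the fold and the small SD was not tested.

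Itgb1bp2 mRNA, which encodes melusin, was 7.69, 8.12, 7.62, 7.84 and 8.04 in rats 1 to 5 at 0 h. At 48 h it was 4.18, 3.29, 4.40, 3.61 and 4.69. Rats 2 and 4 were the low animals at 48 h and rat 5 the high one, and the groups did not overlap. The mean went from 7.86 ± 0.22 to 4.04 ± 0.57 (SD, n = 5 per group), a fall by 3.82 log2 units or 14.2-fold in the measured values. At 48 h the signal lay among the negative controls of the same arrays (above 19.8% to 64.3% of them), so this fold does not give the exact size of the loss.

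Ppp1r27 mRNA, which encodes the PP1 regulator, was 10.25, 10.42, 10.17, 10.94 and 10.87 in rats 1 to 5 at 0 h. At 48 h it was 7.08, 6.28, 7.14, 7.003 and 6.16. Rats 4 and 5 were high at 0 h, rats 2 and 5 were low at 48 h, and the groups did not overlap. The mean went from 10.53 ± 0.35 to 6.73 ± 0.47 (SD, n = 5 per group), a fall by 3.79 log2 units or 13.9-fold, with 3.02 log2 units (8.12-fold) between the closest rats. The groups thus did not overlap for any of the 4 mRNAs, which were chosen on this difference, against 17.7% of all probe sets with every rat at 48 h below every rat at 0 h.

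**Figure D1:**
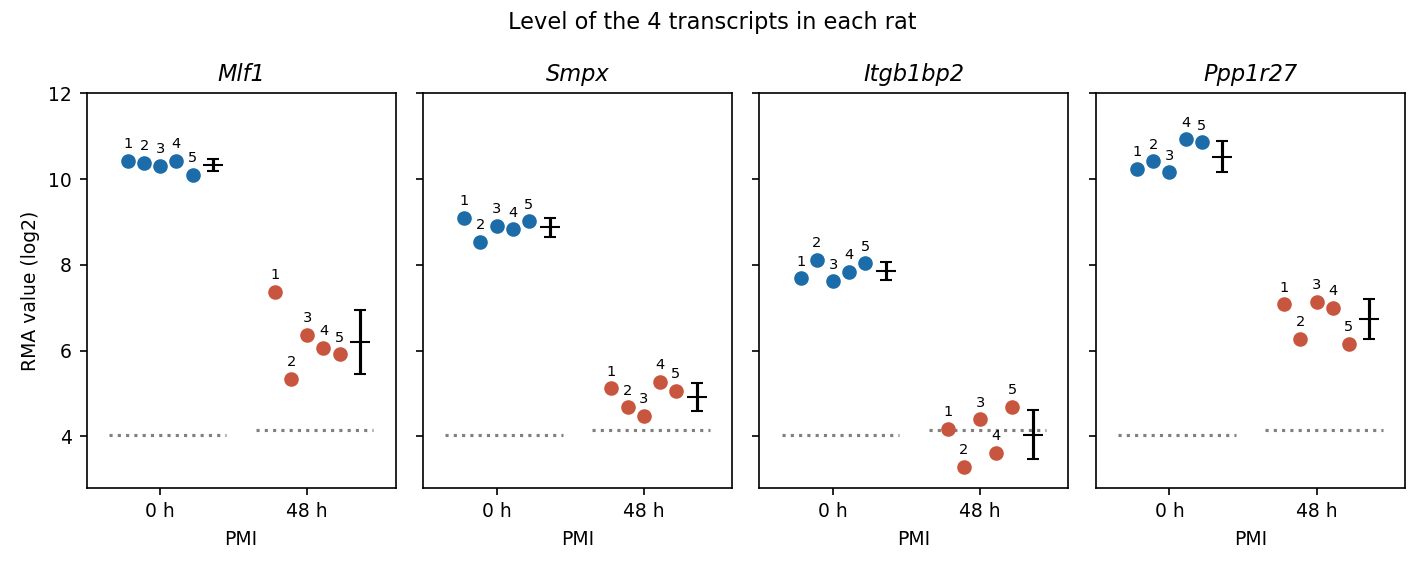
RMA value (log2) of the 4 mRNAs in each rat at 0 h (blue) and 48 h (red) of PMI, with rat numbers above the points, the mean and SD as a bar (n = 5 each) and the mean over arrays of the median negative control probe set as a dotted line. All 48 h points lie below all 0 h points, and at 48 h the Itgb1bp2 points between 3.29 and 4.69 lie around the dotted line.

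The rats at 48 h did not keep a common order over the 4 mRNAs. The lowest rat at 48 h was rat 2 for Mlf1 and Itgb1bp2, rat 3 for Smpx and rat 5 for Ppp1r27. Rat 1 at 48 h lay above its group mean for all 4 mRNAs (by 0.14 to 1.16 log2 units) and rat 2 below it for all 4 (deviations of -0.87 to -0.24), while rats 3, 4 and 5 were above the mean for some and below it for others. At 0 h the deviations ran from -0.36 to 0.41, and no rat was above or below the mean for all 4. The SD at 48 h was 5.36 times that at 0 h for Mlf1, 2.67 times for Itgb1bp2, 1.52 times for Smpx and 1.34 times for Ppp1r27. Leaving out rat 1 or rat 2 of the 48 h group moved the change of Mlf1 to -4.41 or -3.90, the widest such range of the 4.

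The array has no detection call in the deposited values, so each mRNA was placed among the 1153 negative control probe sets of the same array. At 0 h, Mlf1 was above 99.3% to 99.4% of them, Smpx above 97.3% to 98.4%, Itgb1bp2 above 94.9% to 96.8% and Ppp1r27 above 99.05% to 99.6%. At 48 h, Ppp1r27 was above 84.3% to 93.1% of the negative controls and Mlf1 above 74.6% to 94.3%. Smpx was above 58.7% to 74.7%, and Itgb1bp2 above 19.8% to 64.3% with a median of 53.8%, that is, among them. The level of the negative controls itself differed little between groups, with a median of 3.96 to 4.22 at 0 h and 4.07 to 4.28 at 48 h, whereas that of the 23 background probe sets rose from 3.04 to 3.14 at 0 h to 3.54 to 3.82 at 48 h. No 48 h value of the 4 mRNAs was above more than 94.3% of the negative controls. In every rat at 0 h, all 4 mRNAs were above all 23 background probe sets. At 48 h Ppp1r27 was above 16 to 18 of these 23 and Mlf1 above 15 to 18. Smpx was above 13 to 15 of them and Itgb1bp2 above 10 to 14. The part of background signal in the 48 h values was not tested, so none of the 4 folds gives the exact size of the loss.

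**Figure D2:**
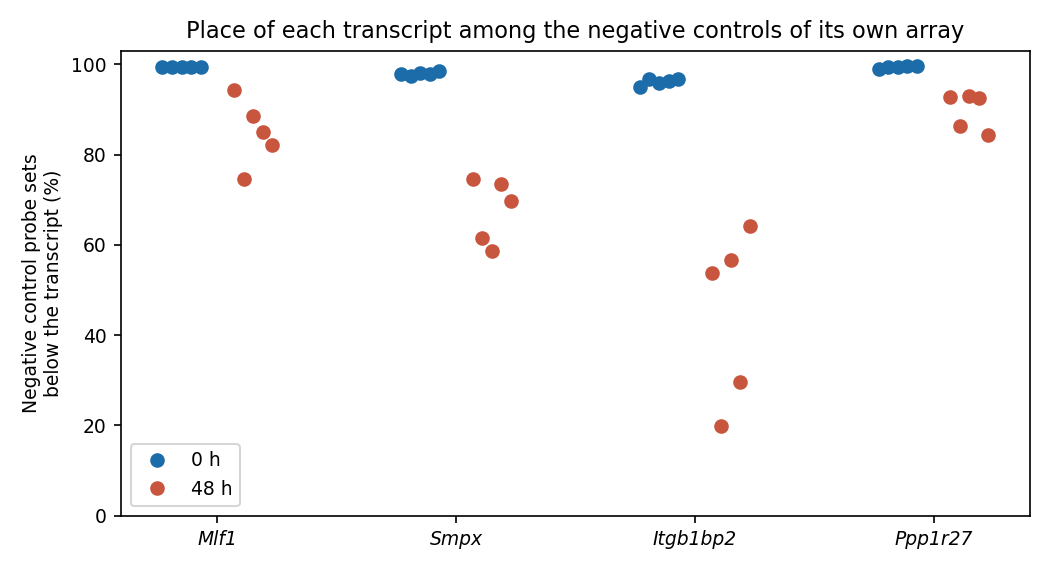
Percentage of the 1153 negative control probe sets that lie below each mRNA on the same array, 1 point per rat, at 0 h (blue) and 48 h (red). At 48 h Ppp1r27 stays at 84.3% or above, while Itgb1bp2 ranges from 19.8% to 64.3%.

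A loss of more than 3.5 log2 units was rare on these arrays, at 35 of the 23188 probe sets (0.151%), of which 29 had a gene symbol. Mlf1, Smpx, Itgb1bp2 and Ppp1r27 placed 8, 10, 11 and 12 among these 29 genes in the values as deposited. Just inside the threshold were Nrap, a costamere and myofibril assembly protein, with a change of -3.505, and Fkbp3, a nuclear immunophilin, with -3.53. Just outside it were Myf6, a myogenic transcription factor, with -3.49, and Gpt2, the mitochondrial alanine transaminase, with -3.48. Membership near the line depends on the summary: by group medians Ppp1r27 changed by -3.42, and after cyclic loess scaling by -3.20. The 29 genes had a median SD of 0.30 at 0 h and 0.71 at 48 h. Csrp3 alone of the 29 had a lower SD at 48 h than Smpx, whose 48 h level lay near the negative controls. For Mlf1, 18 of the 29 had a lower SD at 48 h. At 0 h the order was different, with 2 of the 29 below Mlf1 and 16 below Ppp1r27.

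Profiles over the 10 arrays, each centred on its own mean, gave the genes most like each mRNA by root mean square distance in log2 units. All of these genes fell strongly, so a small distance reflects both the size of the loss and the order of the rats, and the same 10 arrays underlie every distance. Mlf1 was nearest to sarcomere genes, namely Myot (myotilin of the Z-disc) at 0.199 and Myh1 (a fast myosin heavy chain) at 0.268, followed by Klhl41 at 0.399 and Myom2 (an M-band protein) at 0.406. At 48 h Myot was 7.26, 4.92, 6.39, 5.64 and 5.76 in rats 1 to 5, and, like Mlf1, was highest in rat 1 and lowest in rat 2.

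Ppp1r27 was nearest to Flnc (filamin C, an actin crosslinker of the Z-disc and costamere) at 0.152, the smallest distance found for any of the 4, then to Nrap at 0.261, Acsl1 at 0.288 and Cpt1b at 0.294. At 48 h Flnc was lowest in rat 5 (5.03) and rat 2 (5.27), the same low rats as for Ppp1r27. Smpx had no near neighbour of this kind. Its closest were Cpt1b at 0.420 and Hadhb at 0.432, enzymes of fatty acid oxidation, then Carnmt1 at 0.434 and Ppp2r3a at 0.455, and Ppp1r27 came next at 0.456. Itgb1bp2 lay nearest to Hadhb at 0.348, Fsd2 and the actin regulator Cfl2 at 0.367 each and Fkbp3 at 0.382. The largest distance between any pair of the 4 was 0.515, and since the rule chose all 4 for a similar large fall, which makes up most of each profile, nothing is read from it.

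**Figure D3:**
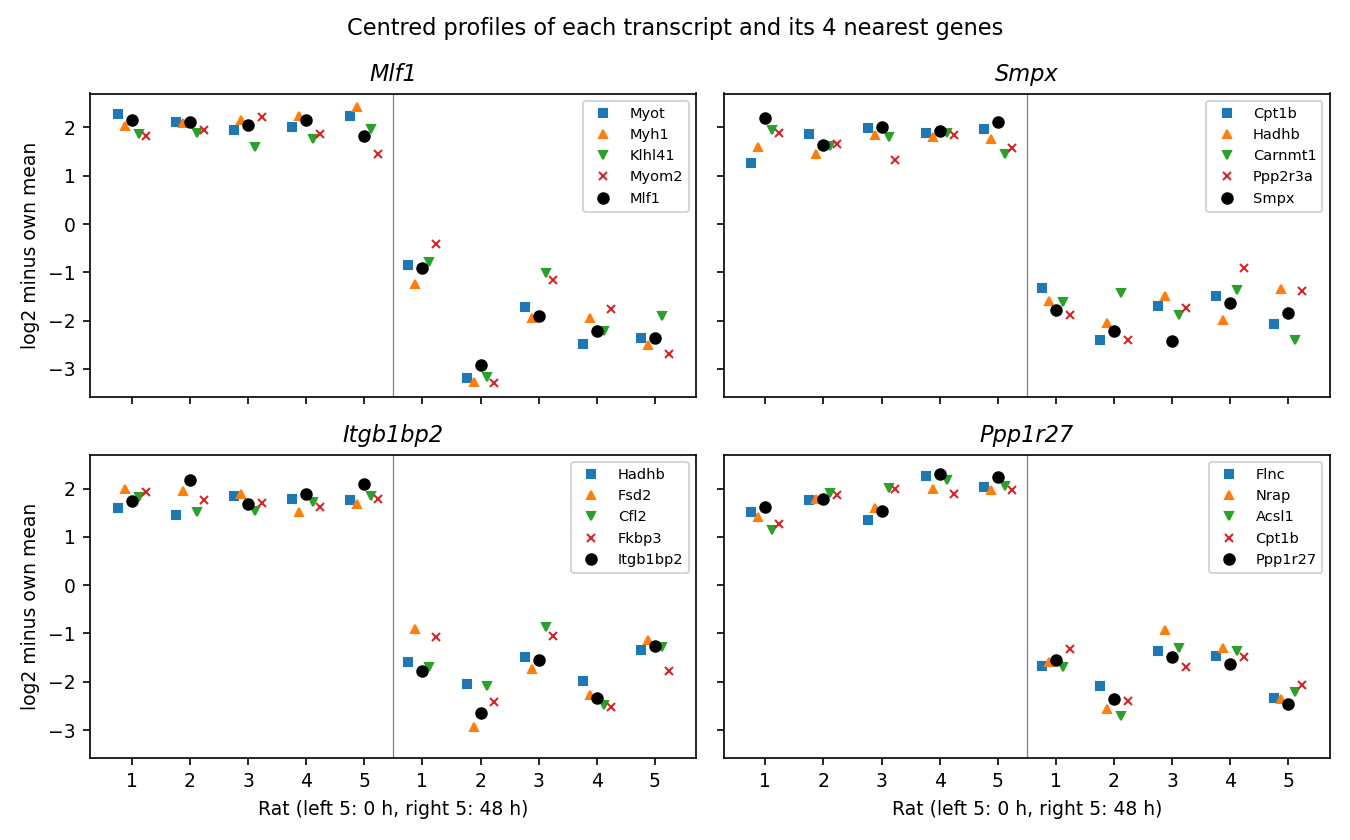
RMA values (log2) minus each gene's own mean over 10 arrays, for each of the 4 mRNAs (black circles) and the 4 genes at the smallest root mean square distance (coloured markers), by rat. Mlf1 and Myot (distance 0.199) and Ppp1r27 and Flnc (distance 0.152) follow each other most closely in the 48 h rats.

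Genes related to MLF1 changed by -2.30 to 0.59. Of 8 measured genes of the MLF family and of MLF1 partners, 4 fell, 0 rose and 4 were not called, beside 12.1% of all probe sets that fell. The median change was -1.18, and 2 of the 8 fell and 1 rose after cyclic loess scaling. Mlf2, the paralog, fell by 2.30 (SE 0.23, limma adjusted p = 4.48e-07), from 8.97, 9.19, 8.96, 9.21 and 8.89 at 0 h to 7.11, 6.85, 7.30, 5.87 and 6.60 at 48 h, with no overlap. Cops3, a subunit of the COP9 signalosome, fell by 1.81 (adjusted p = 5.20e-07). The ubiquitin ligase Cop1 fell by 1.47 and the apoptosis regulator Hax1 by 1.40, and after cyclic loess both lost the call at -0.99 and -0.79. Dnajb6, a co-chaperone that binds MLF1, changed by -0.84 (adjusted p = 0.00147), under the fold of 2. All of its 48 h values lay below all of its 0 h values, as for 17.7% of all probe sets.

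Of 12 measured genes of the melusin and integrin list, 3 fell, 0 rose and 9 were not called, beside 12.1% of all probe sets that fell, with a median of -0.46, while 1 fell and 2 rose after cyclic loess and 6 fell with olfactory receptor centring. Itgb1, the integrin whose tail melusin binds, was 8.33, 8.48, 8.43, 8.46 and 8.61 at 0 h and 9.55, 9.44, 9.23, 9.23 and 9.38 at 48 h. Every rat at 48 h was thus above every rat at 0 h, as for 13.4% of all probe sets, and the change of 0.90 (SE 0.15, adjusted p = 0.000119) stayed under the fold of 2, which it passed after cyclic loess at 1.51. Chordc1, which encodes the closest relative of melusin by its CHORD domains, fell by 1.09 (adjusted p = 0.000752), and this call was lost without rat 4 of the 48 h group (-0.91) and after cyclic loess (-0.58). The HSP90 co-chaperone Sugt1 fell by 1.505 (adjusted p = 8.86e-05) and the kinase Map2k1 by 1.33. Of the HSP90 genes, Hsp90ab1 changed by -0.76 (adjusted p = 0.000636) and Hsp90aa1 by -0.34 (adjusted p = 0.275), the latter turning to 0.23 after cyclic loess.

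Costamere genes, the neighbours of SMPX and melusin in the fibre, mostly fell or were not called. Of 25 measured, 13 fell, 1 rose and 11 were not called, with a median of -1.27, and 4 rose after cyclic loess. Over all probe sets 12.1% fell and 4.35% rose. Csrp3, the muscle LIM protein, fell by 4.20 (adjusted p = 5.46e-07), with an SD of 1.27 at 0 h. Flnc fell by 3.57, Nrap by 3.505 and the Z-disc protein Pdlim3 by 2.898. Lims2, which encodes PINCH2 of the integrin-linked kinase complex, rose by 1.57 (SE 0.18, adjusted p = 2.41e-06) from 6.28 ± 0.31 to 7.85 ± 0.19 (SD, n = 5 each).

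All 3 catalytic subunits of PP1, the enzyme that PPP1R27 binds, fell. Ppp1cb fell by 1.94 (adjusted p = 1.41e-07), Ppp1cc by 1.66 and Ppp1ca by 1.57. Ppp1cb went from 10.16, 10.51, 10.47, 10.59 and 10.29 at 0 h to 8.15, 8.64, 8.80, 8.44 and 8.29 at 48 h. Every 48 h value was below every 0 h value, as for 17.7% of all probe sets. Of 31 other PP1 regulatory subunits measured, 7 fell, 0 rose and 24 were not called, with a median of -0.08. Over all probe sets 12.1% fell, 4.35% rose and the median change was 0.10. With olfactory receptor centring 11 of these subunits fell, and 2 rose after cyclic loess. The largest falls were in Ppp1r3a, the muscle glycogen-targeting subunit, by 2.59 (adjusted p = 3.17e-07), the inhibitor Ppp1r1a and the nuclear regulator Ppp1r7, by 2.13 each, and Ppp1r12b, a myosin phosphatase subunit, by 1.99.

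Dysf, which encodes the dysferlin that PPP1R27 binds, did not pass the test. Its values were 8.91, 9.11, 9.01, 9.13 and 9.07 at 0 h and 8.72, 9.05, 8.43, 8.35 and 8.73 at 48 h. The groups overlapped through rat 2 of the 48 h group, and the change of -0.39 (SE 0.17, adjusted p = 0.0639) turned to 0.22 after cyclic loess. Over all probe sets 12.1% fell. Of 12 measured genes of dysferlin and membrane repair, 5 fell, 0 rose and 7 were not called, with a median of -0.51, and 1 rose after cyclic loess. Those named were the protease Capn3, by 3.09, the caveolar protein Cavin4, by 2.84, the T-tubule protein Bin1, by 2.47, and Trim72 (MG53, which patches membrane wounds), by 2.12.

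Among 76 other muscle-enriched genes measured, 56 fell, 0 rose and 20 were not called, beside 12.1% of all probe sets that fell. Their median change was -2.26. The threshold of 3.5 was passed by 5 of these 76 genes, and after cyclic loess 6 rose. These lists were chosen with results of these arrays known, so the counts describe them and are no independent evidence of their direction. The largest falls without overlap were in the gluconeogenic enzyme Fbp2, by 3.70, the myosin binding protein Mybpc1, by 3.68, Klhl41 by 3.63 and Fsd2 by 3.60. Of 10 muscle transcription factors measured, 6 fell and 0 rose, with a median of -1.06, among them Myf6 by 3.49, Tead1 (the MCAT-binding factor) by 2.01, Myog by 1.66 and Srf by 1.53. All 48 h rats lay above all 0 h rats for 5 of the 76 genes, beside 13.4% of all probe sets. These were Fitm1, Sgca, Tmem38a, Hrc and Casq1, named after their values were seen, with changes of 0.75, 0.73, 0.70, 0.63 and 0.44, all under the fold of 2.

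**Figure D4:**
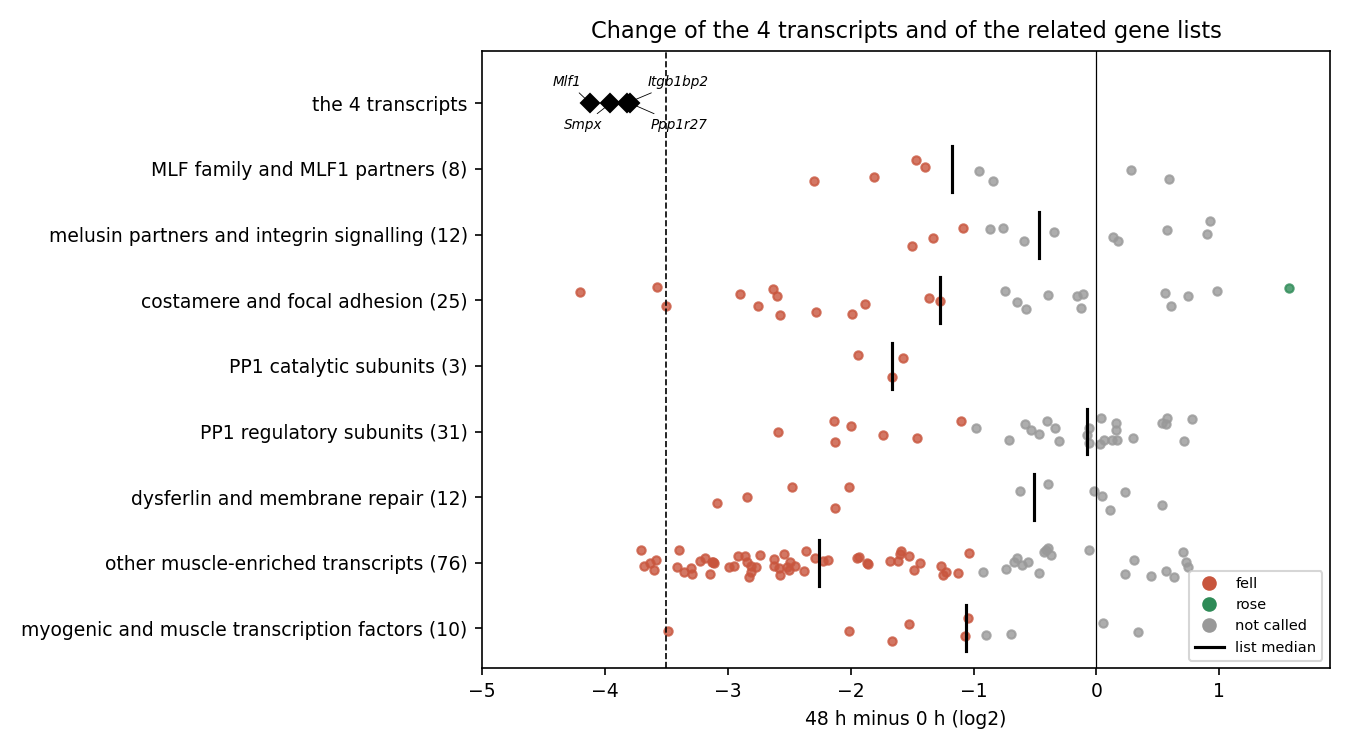
Change between the group means (48 h minus 0 h, log2) of the 4 mRNAs (diamonds) and of each measured gene of the 8 lists, with the number measured in parentheses, genes that fell in red, that rose in green and not called in grey. The vertical bar is the list median and the dashed line the threshold of 3.5. The 4 mRNAs lie between -4.12 and -3.79, beyond the dashed line by the rule that chose them, and the list medians run from -2.26 to -0.08.

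Markers of other cell types moved in both directions, beside 12.1% of all probe sets that fell and 4.35% that rose. Of 9 endothelial markers 6 rose (median 1.38), and their list mean was 6.78 to 7.26 at 0 h and 7.89 to 8.62 at 48 h. Of 10 leukocyte markers, 1 fell (Csf1r, by 1.09) and 1 rose (S100a9, by 1.11), and the list mean was 4.28 to 4.85 and 4.36 to 4.74. Of 6 fibroblast markers 5 fell (median -1.23), with a list mean of 9.39 to 9.89 and 8.34 to 8.56. Of 4 erythroid markers 2 rose, of 4 heart markers 1 rose (Nppa, by 1.24) and of 4 motile cilia markers 1 rose. The 8 skeletal fibre markers had a median change of -1.41. Acta1 (-0.71) and Tnnt3 (-0.86) were not called. Ckm fell by 1.11, Tnnc2 by 1.28, Myh4 by 1.53 and Mb by 2.66, the last with overlapping groups, while Myh1 fell by 4.37 and Actn2 by 4.56. The list mean was 12.08 to 12.41 at 0 h and 9.35 to 10.70 at 48 h. The part of cell composition in the loss of the 4 mRNAs was not tested.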

How the data were processed

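Femoral muscle of 10 rats was profiled on 1 Clariom S Rat array each. The deposited values are log2 values that the authors obtained with RMA (background correction, quantile normalization and probe set summary) in the Transcriptome Analysis Console 4.0 with build rn6, per the submitters' processing notes. Because RMA forces the arrays onto a common scale, a change shared by all mRNAs is lost, and a loss that ends near background can be understated. Groups and rat numbers came from the sample labels. From the 24834 probe sets of the table, 1646 controls were set aside and 23188 were tested. A single symbol was given for 15049 probe sets, and all of their gene identifiers were found in the RefSeq table, with 0 symbols changed. The probe set with the highest mean was taken for each gene.

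Testing used limma 3.58.1 in R 4.3.3 (a two-sided moderated test; residual df 8, prior df 8.99) with Benjamini-Hochberg adjustment over all probe sets. Calls required a 2-fold change or more together with adjusted p under 0.05. The script was tested on simulated data. Nothing in the labels pairs rats between groups. P-values weigh the group difference against the spread between rats, taken as a common variance of both groups and moderated across probe sets. The 4 genes, the gene and marker lists and the rule for naming genes were chosen with earlier results of these data known. Named were the 4 genes, their relatives and partners, from each list at most 4 genes that moved its main way and at most 2 that moved against it, the 2 genes just inside and the 2 just outside the threshold, and the 4 nearest profiles of each gene. Promoters were taken from RefSeq (GRCr8), all 4 genes matched, and motifs were searched on both strands. Alternatives were cyclic loess, centring on 33 olfactory receptor probe sets, a filter on low values, other variance models, ordinary ANOVA (the test the methods name), unadjusted p, another probe set per gene, group medians, a replicate block and leaving out each rat. Figures were drawn with matplotlib 3.10.9.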

Additional observations from a re-analysis of the deposited data

Results flagged for a closer look

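Among 102 groups of 5 rats (51 named genes), 2 had a rat far from the other 4 by Dixon's criterion, and chance alone flags about 1 in 20 groups. Both concern rat 1 of the 0 h group and genes near Ppp1r27 or Smpx in profile. Cpt1b, the carnitine palmitoyltransferase of muscle mitochondria, was 8.727 (log2) in that rat and 9.33 to 9.45 in the other 4. Acsl1, a long-chain acyl-CoA synthetase, was 7.835 in that rat and 8.60 to 8.88 in the other 4. None of the 4 genes Mlf1, Smpx, Itgb1bp2 and Ppp1r27 had such a rat in either group.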

How the results depend on the processing

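Scaling moved the values most. Centring on olfactory receptors lowered every change by 0.52 and put the median of all probe sets at -0.42, while cyclic loess put it at 0.01 (0.10 as deposited). With cyclic loess, Itgb1bp2 changed by -3.65, Mlf1 and Smpx by -3.54 each and Ppp1r27 by -3.20, so that Mlf1 no longer had the largest fall, and olfactory centring gave -4.31 for Ppp1r27, -4.34 for Itgb1bp2, -4.47 for Smpx and -4.64 for Mlf1. Over all probe sets 2811 fell and 1009 rose, against 5396 and 172 with olfactory centring and 2049 and 1307 with cyclic loess, and 534 rose when probe sets under the median level were left out. The genes past 3.5 numbered 29, against 94 with olfactory centring and 11 with cyclic loess. With olfactory centring, 6 genes of the melusin list and 11 PP1 regulatory subunits fell. With cyclic loess, 2 genes of the MLF list and 1 of the melusin list fell, and 1 of the MLF list, 2 of the melusin list, 4 of the costamere list, 2 PP1 regulatory subunits, 1 of the dysferlin list and 6 other muscle-enriched genes rose.

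Of 47 other named genes, 38 kept direction and call in every alternative that gave a value. Hsp90aa1 (0.23) and Dysf (0.22) reversed with cyclic loess, which also ended the calls of Chordc1, Cop1, Hax1 and Map2k1 (-0.85), and Itgb1 passed the fold of 2. Dnajb6 (-1.36) and Hsp90ab1 (-1.28) passed it with olfactory centring. The cause was not tested.

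Leaving out 1 rat gave -4.41 to -3.90 for Mlf1, -4.04 to -3.85 for Smpx, -3.99 to -3.64 for Itgb1bp2 and -3.90 to -3.65 for Ppp1r27, 2706 to 2898 probe sets that fell, 948 to 1118 that rose and 20 to 38 genes past 3.5, with 1 to 2 costamere and 0 to 1 melusin list genes that rose.

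Deviations of rats with the same number had correlations of -0.004 to 0.076, and for 3 of 5 numbers the best match was their own. So few numbers cannot decide whether a number carries a shared effect. The groups were treated as unpaired because they are different animals. With the replicate block 2815 probe sets fell and 1009 rose, and no call of a named gene changed. No member has a second probe set, so that alternative gave no value, nor did the filter on low values for Trim72, whose mean lay under the median. Limits are the 5 rats per group, the single PMI after 0 h, and the nearness of Itgb1bp2 and Smpx to negative controls at 48 h.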
